A study of Homo sapiens with 6 samples.

Results

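Intergenic R-loop regions were examined in SH-SY5Y cells, a human neuroblastoma line, by DRIP-seq, in which DNA fragments that carry a DNA:RNA hybrid are pulled down with the S9.6 antibody and sequenced. The 3 shT2 and 3 shNC3 samples were cells with a lentiviral hairpin of that name. The labels describe a TDP-43 knockdown without saying which hairpin is which, and here shT2 is read, from the names, as the hairpin against TDP-43 and shNC3 as the negative control. All 6 samples came from infected cultures kept under puromycin, and the labels do not say whether the 3 samples of a hairpin came from separate infections. Peaks from all 6 samples were merged on chromosomes 1 to 22 and X, which gave 75622 regions, of which 34776 had a peak in 3 or more samples. Of these, 1676 (4.82%) had no RefSeq GRCh38 gene of any biotype within 2 kb and are the intergenic regions described here, and the other 33100 were gene-near.

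An R-loop is a three-stranded structure in which a nascent RNA stays paired with its DNA template and leaves the other DNA strand free. R-loops are known at promoters with a G-rich non-template strand and past polyadenylation sites, where RNA polymerase II goes on transcribing beyond the annotated gene end. Enhancers, which can lie far from genes, are also transcribed. TDP-43 is a nuclear RNA-binding protein of neurons and other cells that acts in splicing and in the choice of 3′ ends.

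The shT2 lists held 49068, 50971 and 50821 peaks, against 45390, 42717 and 45014 in the shNC3 lists. The lists give no read totals. The mean number of fragments over a base of the genome, recovered from the deposited enrichment and p-values, was 3.31, 3.46 and 3.08 for shT2 and 1.79, 1.65 and 1.74 for shNC3, so depth moved with the hairpin. For this reason the main counts are also given at equal depth, a setting added after the data had been seen, meaning only peaks that would have passed at the depth of the shallowest list. Peaks kept in this setting retained their deposited ends, so covered lengths were not brought to equal depth. Of 19 genes of the noradrenergic state of neuroblastoma cells, the state known for this line, 15 overlapped a peak in all 6 samples. Of 19 genes of the mesenchymal state, 9, 8 and 10 overlapped a peak in the shT2 samples, against 15, 13 and 15 in the shNC3 samples. Peak lists hold no RNA levels, so the knockdown itself was not checked, and fewer cells with an R-loop cannot be told apart from fewer R-loops per cell.

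The intergenic regions were narrow and lay close to genes. Their median width was 1095 bp (range 289 to 13963), against 1742.5 bp for gene-near regions. Only 2 were wider than 10 kb. The median distance to the nearest gene was 4832.5 bp, with quartiles of 3047.5 and 8813 bp, and 1310 regions (78.2%) lay within 10 kb of a gene. The nearest gene was protein-coding for 1085 regions, a lncRNA for 316, a pseudogene for 246 and a miRNA for 16. In all, 1281 different genes were the nearest one.

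Promoter sequences of 4 nearest genes are given as examples and do not stand for the whole set. None of their 4 regions had a peak in all 3 shT2 samples and no shNC3 sample, the pattern of 389 regions. IRF1 and HYOU1 had an intergenic region upstream of the promoter that was present in shNC3 samples alone. ISL1 and DDIT4 had one downstream of the gene, more covered in shT2 at ISL1 (without passing the test) and in shNC3 at DDIT4, while the promoter was covered throughout. Each is the RefSeq GRCh38.p14 window of 300 bases, 250 before to 50 after the start, written 5′ to 3′ on the gene's strand. Capitals mark runs of 4 or more G.
IRF1: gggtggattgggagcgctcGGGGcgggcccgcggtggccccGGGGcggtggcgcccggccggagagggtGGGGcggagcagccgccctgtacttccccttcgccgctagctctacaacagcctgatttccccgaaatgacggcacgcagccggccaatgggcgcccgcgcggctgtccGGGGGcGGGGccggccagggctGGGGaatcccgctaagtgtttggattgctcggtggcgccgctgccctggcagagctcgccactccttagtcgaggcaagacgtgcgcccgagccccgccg
HYOU1: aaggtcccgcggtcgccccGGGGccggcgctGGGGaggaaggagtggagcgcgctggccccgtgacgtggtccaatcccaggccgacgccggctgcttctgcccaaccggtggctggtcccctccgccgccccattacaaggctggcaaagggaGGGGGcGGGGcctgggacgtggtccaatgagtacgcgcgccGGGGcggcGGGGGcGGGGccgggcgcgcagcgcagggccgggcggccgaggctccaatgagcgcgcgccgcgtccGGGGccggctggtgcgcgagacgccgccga
ISL1: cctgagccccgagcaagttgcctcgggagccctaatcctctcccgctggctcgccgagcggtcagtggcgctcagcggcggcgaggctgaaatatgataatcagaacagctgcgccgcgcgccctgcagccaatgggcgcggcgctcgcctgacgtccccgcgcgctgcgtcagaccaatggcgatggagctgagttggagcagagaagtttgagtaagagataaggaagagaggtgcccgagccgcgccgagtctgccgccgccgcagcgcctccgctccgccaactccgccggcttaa
DDIT4: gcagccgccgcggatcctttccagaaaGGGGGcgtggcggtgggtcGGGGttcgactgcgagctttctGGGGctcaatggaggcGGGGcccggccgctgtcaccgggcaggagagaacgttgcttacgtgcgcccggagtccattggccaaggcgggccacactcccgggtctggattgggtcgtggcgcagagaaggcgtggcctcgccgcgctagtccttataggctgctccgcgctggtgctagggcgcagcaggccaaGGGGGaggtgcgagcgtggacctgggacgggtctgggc
The windows are chr5:132490724-132491023 (minus strand), chr11:119057156-119057455 (minus), chr5:51383198-51383497 (plus) and chr10:72273674-72273973 (plus). GGGG stood in 75.1% of the 35116 promoters in the RefSeq table, and GGGG or its reverse complement CCCC in 89.6%, so a G run is common to most promoters. The IRF1 window held 6 such runs, HYOU1 8, DDIT4 5 and ISL1 none. Peaks covered 0, 0 and 0 bp of the IRF1 window in the shT2 samples, against 300, 96 and 300 bp in the shNC3 samples. They covered 188, 288 and 9 bp of the HYOU1 window in the shT2 samples, against all 300 bp in each shNC3 sample. The ISL1 and DDIT4 windows were covered over all 300 bp in each of the 6 samples. Sequence of the intergenic regions themselves was not used here.

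Intergenic regions were more often occupied in the shT2 samples. A peak was present in 1296, 1318 and 1289 of the 1676 regions in the shT2 samples (mean 1301 ± 15.1, SD, n = 3), against 1054, 965 and 1030 in the shNC3 samples (1016 ± 46.0, n = 3). The groups did not overlap, with a difference of 284.7 regions. The two-sided exact permutation test gave p = 0.1, the smallest value that 3 against 3 samples allow. At equal depth the means were 1123 regions in shT2 and 965.7 in shNC3. Gene-near regions were also more often present in shT2, with means of 27898 against 24524. Intergenic regions made up 4.48, 4.42 and 4.46% of the regions present in the shT2 samples and 4.02, 3.93 and 3.98% in the shNC3 samples, which again did not overlap (exact permutation p = 0.1). A region found only under shT2 (389) or only under shNC3 (200) entered through its 3 peaks and counts in each sample of that hairpin. Part of both differences thus follows from the choice of regions.

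Their covered length differed by more. Peaks inside intergenic regions covered 1745, 1860 and 1729 kb in the shT2 samples, against 1255, 1064 and 1194 kb in the shNC3 samples. As a share of each sample's whole covered length, which corrects for longer lists, this was 2.38% in each shT2 sample and 1.78, 1.69 and 1.76% in the shNC3 samples. The difference in share was 0.636 percentage points (exact permutation p = 0.1), and 0.590 points at equal depth. The equal-depth setting leaves the ends of kept peaks unchanged, so it does not equalise covered length. Regions found under a single hairpin add to this difference by the rule, as they do to the counts above. The median covered length of an intergenic region that was present was 787.5, 849 and 775 bp in the shT2 samples and 718.5, 653 and 730.5 bp in the shNC3 samples. Set against gene-near regions of the same sample, this was a ratio of 0.603 ± 0.008 in shT2 and 0.542 ± 0.019 in shNC3 (SD, n = 3 each; exact permutation p = 0.1).

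The direction depended on distance from genes. Between 2 and 5 kb from the nearest gene, 709, 729 and 712 regions were present in the shT2 samples, against 507, 460 and 503 in the shNC3 samples. Between 5 and 10 kb the counts were 365, 371 and 364 in shT2 and 254, 230 and 250 in shNC3. Between 10 and 50 kb the order turned round, with 184, 184 and 174 regions in the shT2 samples and 226, 212 and 212 in the shNC3 samples. Beyond 50 kb there were 38, 34 and 39 in the shT2 samples against 67, 63 and 65 in the shNC3 samples. In each of these 4 distance classes the hairpins did not overlap (exact permutation p = 0.1 each). At equal depth the means, from near to far, were 619.7, 315.7, 157.3 and 30.7 regions in shT2 and 463.7, 230.0, 208.7 and 63.3 in shNC3, with the same direction in each class. Over the 366 regions beyond 10 kb, the mean number present was 217.7 in shT2 and 281.7 in shNC3, and the share of covered length was 0.397% in shT2 and 0.431% in shNC3. The number present was higher in shT2 within 10 kb of genes and lower beyond it. Beyond 10 kb, 44 regions were found only under shT2 and 103 only under shNC3. Such regions entered through their 3 peaks and count in each sample of that hairpin. The turn in direction thus follows in part from the choice of regions, and the p-values do not test it apart from that choice.

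**Figure D1:**
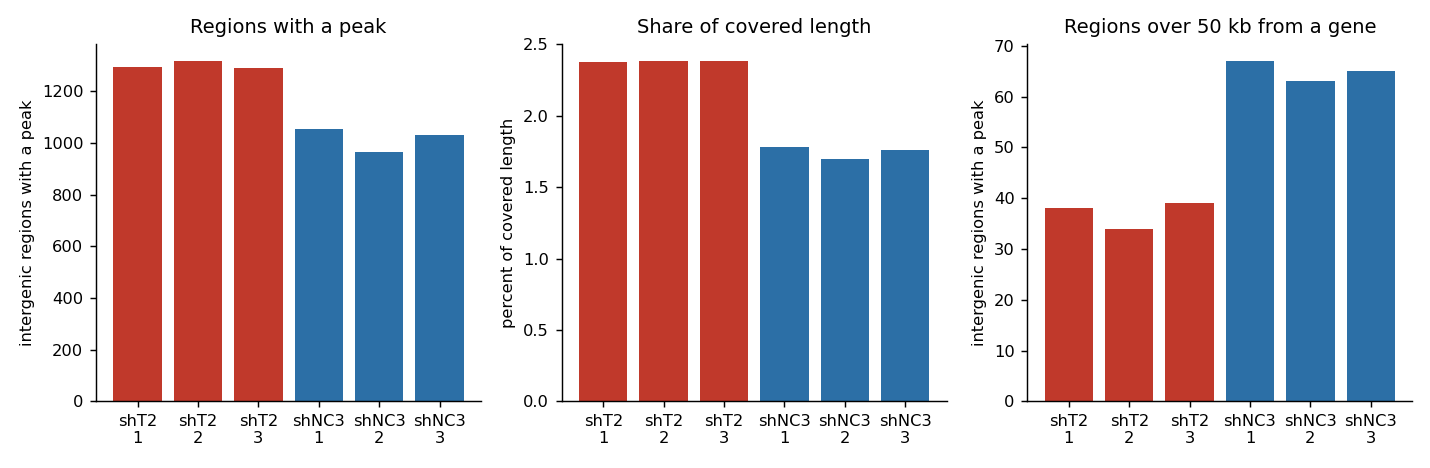
Bars give, for each shT2 and shNC3 sample, the number of intergenic regions with a peak (left), the percent of the sample's covered length inside them (middle) and the number of regions over 50 kb from any gene (right). The 3 shT2 samples stand above the 3 shNC3 samples in the left and middle panels and below them in the right panel.

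Intergenic regions were less shared between samples than gene-near ones. Only 419 (25.0%) had a peak in all 6 samples, where this held for 44.7% of all regions in 3 or more samples. A peak in all 3 shT2 samples and no shNC3 sample was found at 389 regions (23.2%), against 12.8% of all such regions. The opposite pattern was found at 200 regions (11.9%), against 6.21% of all. The other 668 were mixtures. At equal depth the hairpin-specific counts were 313 for shT2 and 222 for shNC3. With only peaks of at least 5-fold enrichment they were 162 and 99, and with peaks merged over gaps of up to 1000 bp they were 222 and 165.

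Covered length per region was tested with limma on log2(scaled covered bp + 200), with Benjamini-Hochberg adjustment over all 34776 regions. Of the intergenic regions, 530 passed as higher in shT2 and 272 as lower, and 874 did not pass. The background over all regions was 21.3% higher and 16.2% lower. At equal depth, with the ends of kept peaks unchanged, 439 passed as higher and 277 as lower. These counts include the 389 and 200 hairpin-specific regions, all of which passed, and a region kept for 3 peaks on one side had to differ. Among the 1087 regions with a peak under both hairpins, 141 (13.0%) passed as higher and 72 (6.62%) as lower, against a background of 10.6% higher and 12.3% lower (22.9% in either direction). At equal depth these counts were 135 and 84. The median log2 difference, shT2 minus shNC3, of these regions was 0.24, against -0.05 over all regions with a peak under both hairpins. Among the 419 regions in all 6 samples, 66 passed as higher and 38 as lower, against backgrounds of 10.1% and 17.0%. Their median log2 difference was -0.03, against -0.12 over all regions in all 6 samples. For intergenic regions under both hairpins but not in all 6 samples it was 0.48, against 0.40 over all such regions. The both-hairpin counts moved with the sample left out. Without shT2 replicate 1, 2 or 3 the higher count was 78, 81 or 81 and the lower count 73, 62 or 61. Without shNC3 replicate 1, 2 or 3 the higher count was 171, 161 or 175 and the lower count 48, 46 or 47.

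Summits were lower in the shT2 samples, in intergenic and gene-near regions alike. In regions present in all 6 samples, the median summit stood at 10.6, 10.1 and 10.7 times the mean genome coverage in the shT2 samples, against 11.7, 11.5 and 11.5 times in the shNC3 samples. Gene-near regions had 12.4, 12.1 and 12.4 times in shT2 and 14.0, 13.9 and 13.8 times in shNC3 (exact permutation p = 0.1 for each set). These heights are divided by depth, which was 3.31, 3.46 and 3.08 in shT2 and 1.79, 1.65 and 1.74 in shNC3. Summits were not compared at equal depth, and the part of depth in this order was not tested. The intergenic summit relative to the gene-near one was 0.852 ± 0.018 in shT2 and 0.833 ± 0.007 in shNC3 (SD, n = 3 each; exact permutation p = 0.3). The authors' fold enrichment at the tallest peak of each region was ranked within its own list. The median percentile per sample for intergenic regions averaged 52.3 in shT2 and 49.6 in shNC3. For gene-near regions it averaged 63.8 in shT2 and 63.9 in shNC3.

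The side of the nearest gene on which a region lay was then read from the strand of the gene. This measure was chosen after the data had been seen, and the strand was known for the nearest gene of 1084 of the 1676 regions. Of these, 827 (76.3%) lay downstream of the gene and 257 upstream. Of the regions specific to shT2, 225 lay downstream and 27 upstream (89.3% downstream). Of those in all 6 samples, 195 lay downstream and 83 upstream (70.1%). Of those specific to shNC3, 64 lay downstream and 47 upstream (57.7%). Intergenic regions seen in only 1 or 2 samples were at 72.2%.

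Over samples, 79.1, 79.0 and 79.6% of the intergenic regions present in the shT2 samples lay downstream, against 70.7, 70.0 and 71.0% in the shNC3 samples, a difference of 8.68 points without overlap (exact permutation p = 0.1). Hairpin-specific regions are present in each sample of their hairpin by definition. The shares over samples thus partly restate the split given above and are not a separate test of it. The downstream share was higher in shT2 in each distance class up to 50 kb. Beyond 50 kb it was not compared over samples, and no shT2-specific region there had a known side. At 2 to 5 kb the downstream share averaged 79.9% in shT2 and 71.4% in shNC3, at 5 to 10 kb 78.4% and 68.6%, and at 10 to 50 kb 78.7% and 70.6%. At equal depth, 90.7% of shT2-specific and 59.7% of shNC3-specific regions were downstream. With the nearest protein-coding gene in place of the nearest gene of any biotype, the shares were 83.4% and 50.9%. The pattern was not confined to intergenic regions. Among gene-near regions that overlap no gene, 164 of 203 shT2-specific ones lay downstream (80.8%), against 27 of 89 shNC3-specific ones (30.3%). Over samples these shares were 63.0, 63.6 and 63.9% in shT2 and 52.9, 52.0 and 52.6% in shNC3.

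**Figure D2:**
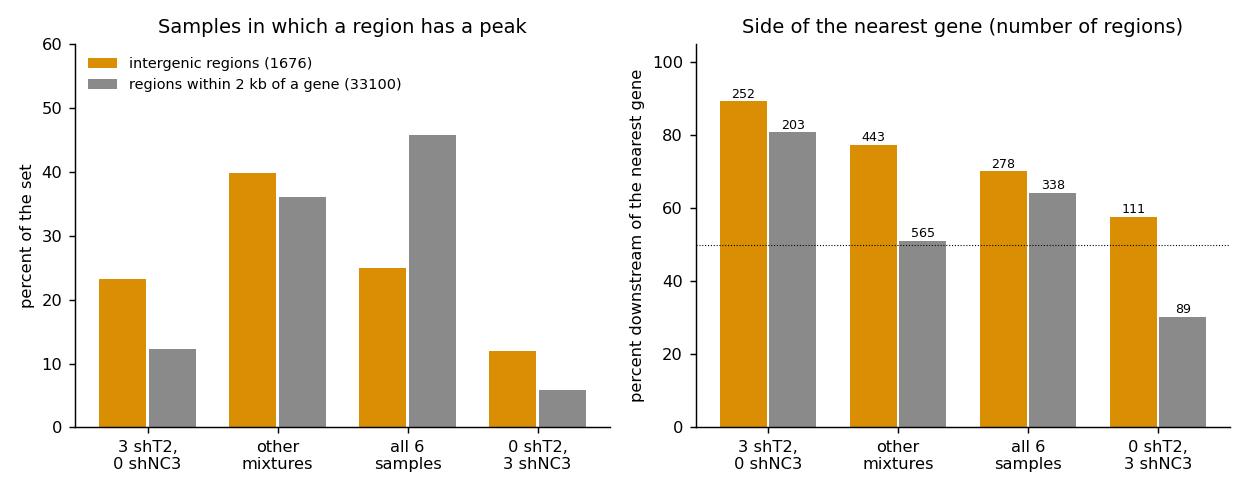
Left, the percent of intergenic regions and of regions within 2 kb of a gene with each pattern of samples: 23.2% and 12.2% were specific to shT2, and 25.0% and 45.7% were shared by all 6 samples. Right, the percent that lay downstream of the nearest gene of known strand, with the number of regions above each bar and gene-overlapping regions left out. The dotted line marks 50%, and among intergenic regions the share is 89.3% for shT2-specific and 57.7% for shNC3-specific ones.

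Regions specific to each hairpin also differed in where they lay. Those specific to shT2 had a median distance of 4403 bp to the nearest gene, and 6 of 389 (1.54%) were over 50 kb away. Of these 6 regions, 5 lay at chr16:46389877-46400542 near ANKRD26P1, on a raised local background described below. Those specific to shNC3 had a median of 11420 bp, and 28 of 200 (14.0%) were over 50 kb away. Regions in all 6 samples had a median of 4629 bp. The nearest gene-near R-loop region lay at a median of 6160 bp from shT2-specific regions, 85940.5 bp from shNC3-specific regions and 4051 bp from regions in all 6 samples. The nearest gene was protein-coding for 72.8% of shT2-specific regions and 41.0% of shNC3-specific ones, and a lncRNA for 12.9% and 36.5%.

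**Figure D3:**
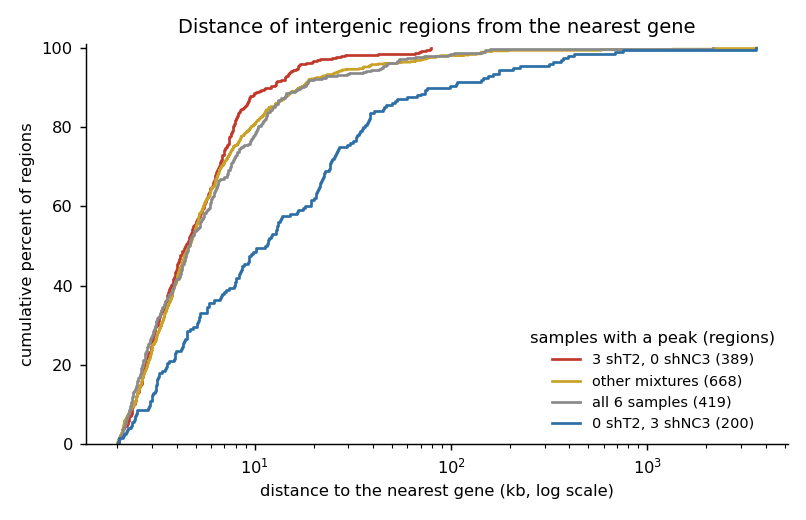
Cumulative percent of intergenic regions (vertical axis) by distance to the nearest gene in kb (horizontal axis, log scale), for each pattern of samples. The curve of the 200 shNC3-specific regions runs to the right of the others, with a median of 11420 bp against 4403 bp for the 389 shT2-specific regions.

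The 8 regions with the largest gains in shT2 ranged from 4008 to 9555 bp in width. The largest log2 difference was at chr20:37414344-37423898, a region of 9555 bp that lay 8293 bp from SRC, a non-receptor tyrosine kinase. It was covered in full in the 3 shT2 samples and over 0, 299 and 0 bp in the shNC3 samples. The log2 difference was 5.06 ± 0.42 (SE), with a limma adjusted p of 0.000805. A region of 8761 bp at chr2:44968932-44977692, 18719 bp from the pseudogene KRTCAP2P1 and 22860 bp from SIX3, a homeobox factor of forebrain and eye, was covered over 8470, 8010 and 8259 bp in the shT2 samples. In the shNC3 samples it was covered over 0, 0 and 372 bp, and the log2 difference was 4.81 ± 0.46 (adjusted p = 0.00118).

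Of the other regions with the largest gains, 6 had no peak in any shNC3 sample. At chr9:40880712-40886694, which lay 42315 bp from the miRNA gene MIR1299 and far from any protein-coding gene, 5983, 5643 and 5983 bp were covered in the shT2 samples. The region 6784 bp downstream of ZNF516, a zinc finger factor, was covered over 4549, 4549 and 4226 bp in the shT2 samples. The region 8381 bp downstream of RPS6KA2, a ribosomal S6 kinase, was covered over 4364, 4285 and 4215 bp in those samples. The regions near GRK3, a kinase of G protein-coupled receptors, near the lncRNA MYADM-AS1 and downstream of SAMD8, a ceramide phosphoethanolamine synthase, averaged 4.25, 3.87 and 3.65 kb in shT2. Where strand was known, all 4 of these regions lay downstream of the nearest gene, at ZNF516, RPS6KA2, MYADM-AS1 and SAMD8.

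The 8 regions with the largest losses in shT2 ranged from 2783 to 4264 bp in width, and 3 of them had a lncRNA as their nearest gene. The region 7438 bp from TIMP2, an inhibitor of matrix metalloproteinases, had no peak in the shT2 samples and was covered over 4264, 3469 and 3726 bp in the shNC3 samples (chr17:78932826-78937089). The region upstream of ACOT11, an acyl-CoA thioesterase, 3144 bp from the pseudogene HNRNPA1P63, had none in shT2 and 3026, 3339 and 3026 bp in shNC3. Upstream of HYOU1, a chaperone of the endoplasmic reticulum, chr11:119059646-119062428 had none in shT2 and 2114, 2024 and 2783 bp in shNC3. Its gap to the gene-near region over the HYOU1 promoter was 154 bp, and coverage of that promoter window was also lower in the shT2 samples, as given above.

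Downstream of DDIT4, a stress-induced inhibitor of mTORC1, a region 21975 bp away was covered over 422, 0 and 0 bp in the shT2 samples and over 3526, 3268 and 3502 bp in the shNC3 samples. The log2 difference was -3.73 ± 0.48 (limma adjusted p = 0.00262). The region 2919 bp downstream of NFIL3, a basic leucine zipper repressor, had no peak in shT2 and 2785, 2038 and 2207 bp in shNC3. The other 3 were near the lncRNAs LOC105375493, LOC105377615 and LOC124903676, with 2.63, 2.24 and 1.99 kb on average in shNC3 and no peak in shT2. Of the 8 regions with the largest losses, the calls near DDIT4, NFIL3, LOC105375493, LOC105377615 and LOC124903676 were lost when only peaks of at least 5-fold enrichment were used.

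**Figure D4:**
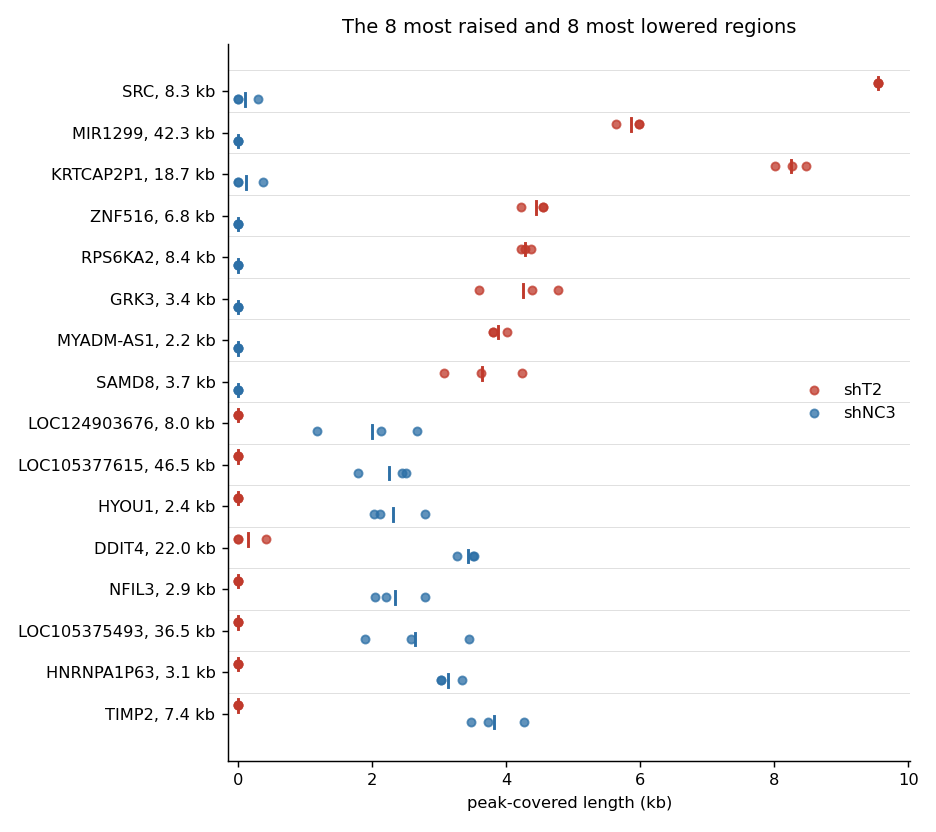
Peak-covered length in kb in each sample (points) with the mean of each hairpin (bars), for the 8 intergenic regions with the largest log2 gain and the 8 with the largest loss, named by the nearest gene and its distance. shT2 is drawn above shNC3 in each row. The regions were chosen among those past the test whose hairpins do not overlap, so the gap between the hairpins is a result of the choice.

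Among regions present in all 6 samples, the 10 with the largest mean covered length were taken, and 4 of them passed the test. Of all regions present in all 6 samples, 27.1% passed. The widest of all, 13963 bp at chr7:128518837-128532799, lay 12234 bp downstream of METTL2B, a tRNA methyltransferase, and was covered over 12543, 12888 and 13490 bp in the shT2 samples and 12431, 11478 and 11719 bp in the shNC3 samples. Its scaled log2 difference was -0.03 ± 0.05 (limma adjusted p = 0.683). The region 2667 bp downstream of WDR4, a subunit of a tRNA methyltransferase, averaged 9.53 ± 0.65 kb in shT2 and 7.73 ± 0.27 kb in shNC3, with a scaled log2 difference of 0.14 ± 0.09 (adjusted p = 0.273). The regions near DAND5, POLL, TPCN2 and LOC105373928 also did not pass. The region upstream of ZNF77 passed as higher (0.27 ± 0.07, adjusted p = 0.0325). Those near GLIS2 (-0.70 ± 0.17, adjusted p = 0.0223), CD34 (-0.51 ± 0.14, adjusted p = 0.0332) and NPTX1 (-0.22 ± 0.06, adjusted p = 0.0415) passed as lower. None of these 4 calls held without each replicate in turn. The call at ZNF77 was lost without shT2 replicate 1, 2 or 3 or shNC3 replicate 1 or 3 (adjusted p 0.0556 to 0.105), and that at GLIS2 without shT2 replicate 2 or 3 or shNC3 replicate 2 or 3 (0.0651 to 0.0857). The call at CD34 was lost without shT2 replicate 1 or 2 or shNC3 replicate 1 or 3 (0.0944 to 0.111), and that at NPTX1 without any replicate other than shT2 replicate 2 (0.0542 to 0.115).

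Near genes of the noradrenergic state, 5 intergenic regions were found at 3 of the 19 genes, and 2 passed as higher and none as lower. Both lay downstream of GATA3, a zinc finger factor of sympathetic neurons. The nearer, 3008 bp past the gene at chr10:8078207-8080841, was covered over 2444, 2349 and 2160 bp in the shT2 samples and over 297, 616 and 333 bp in the shNC3 samples. Its log2 difference was 1.94 ± 0.27 (limma adjusted p = 0.00314). The farther, 7406 bp away, was covered over 292, 1346 and 609 bp in shT2 and had no peak in shNC3. With only peaks of at least 5-fold enrichment, the difference at the nearer region was larger but no longer passed (log2 difference 2.55, adjusted p = 0.0718). The region 3270 bp downstream of ISL1, a LIM homeobox factor, had 349, 1178 and 896 bp in shT2 against 0, 0 and 298 bp in shNC3 and did not pass (adjusted p = 0.0537). The region 3485 bp from SOX11, an SRY-box factor of neural progenitors, had 380, 283 and 0 bp in shT2 against 334, 364 and 371 bp in shNC3 and did not pass (log2 difference -0.63 ± 0.44, adjusted p = 0.31). The farther GATA3 region entered the fit only through its 3 shT2 peaks, so its call follows from its choice.

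Near genes of the mesenchymal state, 4 regions were found at 4 of the 19 genes, and none passed as higher and 3 as lower. All 3 are specific to shNC3 and entered the fit only through its 3 peaks, so their calls follow from that choice, and their levels are given as a description. The region 4682 bp upstream of IRF1, an interferon regulatory factor, had no peak in shT2 and 310, 315 and 458 bp in shNC3. The region 7505 bp from COL1A1, a chain of type I collagen, had no peak in shT2 and 1642, 661 and 671 bp in shNC3. The region nearest TBX18, a T-box factor 241020 bp away, had no peak in shT2 and 618, 618 and 587 bp in shNC3. Downstream of FOSL2, a subunit of AP-1, 0, 632 and 0 bp were covered in shT2 against 1327, 774 and 679 bp in shNC3, which did not pass (adjusted p = 0.0629). The 3 calls were lost with only peaks of at least 5-fold enrichment, and that at IRF1 also when regions of any number of samples entered the fit (adjusted p = 0.079). Peaks at mesenchymal genes themselves were also fewer in shT2, as given above, and their part in this count was not tested.

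Near the 29 receptor kinases and growth factors, 4 regions lay at 3 genes, and 3 passed as higher and 1 as lower. Both regions near GFRA2, the co-receptor of neurturin, had peaks in shT2 alone, so their calls too follow from their choice, and the wider was covered over all of its 2879 bp in each shT2 sample. The call at the narrower was lost at equal depth (adjusted p = 0.194). The region nearest EGFR, 65656 bp upstream, had 393, 0 and 0 bp in shT2 and 1042, 1042 and 428 bp in shNC3 (log2 difference -1.86 ± 0.56, limma adjusted p = 0.0473). The EGFR call was lost without shT2 replicate 2 or 3 or shNC3 replicate 1 or 2 (adjusted p 0.118 to 0.151).

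Near the 62 genes of axon guidance and neural development, 12 regions lay at 7 genes, and 3 passed as higher and 5 as lower. The region 8057 bp downstream of SLIT3, a secreted guidance ligand, had 309, 408 and 469 bp in shT2 and no peak in shNC3. The regions nearest LMO1, a LIM-domain cofactor, EPHA7, an ephrin receptor, and PLXNA4, a semaphorin co-receptor, had no peak in shT2 and averaged 684, 783 and 407 bp in shNC3. The last 2 lay 684590 and 224976 bp from those genes. The calls at these 4 regions, each specific to one hairpin, follow from their choice. The SLIT3 and LMO1 calls were lost with only peaks of at least 5-fold enrichment. The PLXNA4 region had no such peak in any sample and could not be fitted in that setting. With no filter on samples, the SLIT3 and PLXNA4 calls were lost (limma adjusted p 0.0822 and 0.0587). The 4 lists were not tested as groups, and over all regions 21.3% were higher and 16.2% lower.

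**Figure D5:**
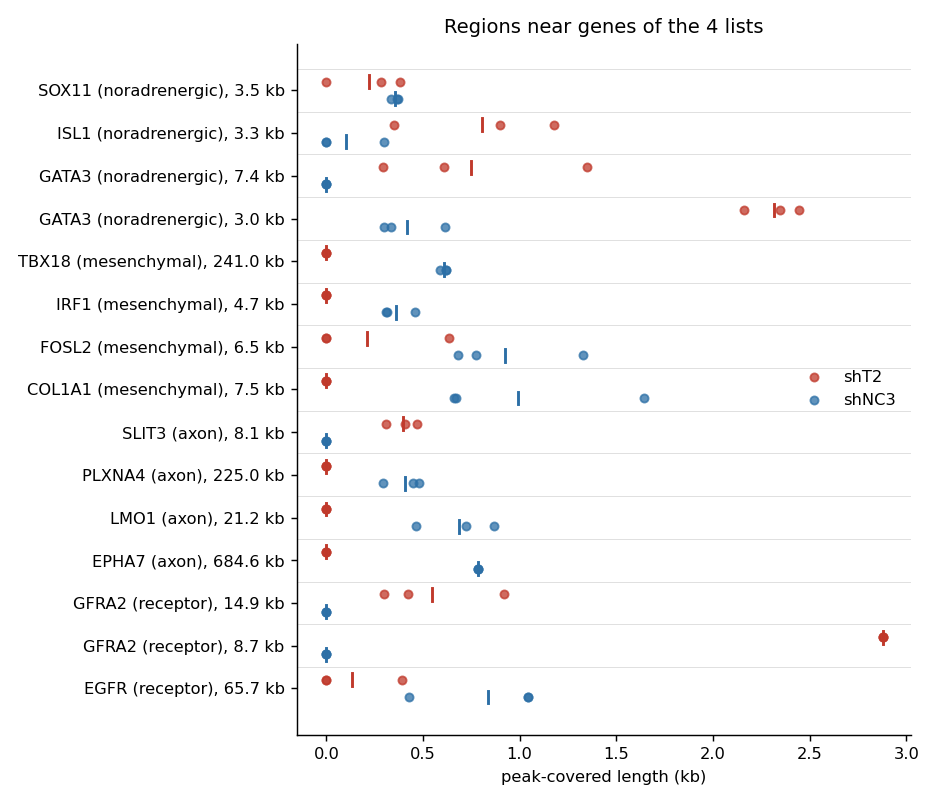
Peak-covered length in kb in each sample (points) with the mean of each hairpin (bars), for intergenic regions described near genes of the 4 lists, named by the nearest protein-coding gene, its list and its distance. Both GATA3 regions and both GFRA2 regions are higher in shT2, and the IRF1, COL1A1 and TBX18 regions have a peak in shNC3 alone.

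Some neighbourhoods held many intergenic regions. Within 500 kb, the densest were 11 regions around KCMF1 and TGOLN2 on chromosome 2 and 11 regions around RPP25 and PPCDC on chromosome 15. On chromosome 15, 12.6, 13.9 and 12.3 kb were covered in the shT2 samples, against 7.50, 7.81 and 8.61 kb in the shNC3 samples, and 4 regions passed as higher and none as lower. Around KCMF1, a ubiquitin ligase that was the nearest gene of 7 regions, 9.88, 7.41 and 8.42 kb were covered in shT2 and 7.95, 7.26 and 8.64 kb in shNC3, which overlap. Of 9 regions around FSCN1 and ACTB on chromosome 7, 7 were present in all 6 samples. Of 10 regions around GPR132 and ZBTB42 on chromosome 14, 3 passed as lower and none as higher. There, 13.9, 13.2 and 12.8 kb were covered in shT2 and 13.7, 13.3 and 17.0 kb in shNC3, which overlap. The last of the 5 densest, 10 regions around DAND5 and RNASEH2A on chromosome 19, had 2 higher and none lower, with 12.8, 15.0 and 15.0 kb covered in shT2 and 15.0, 12.3 and 12.8 kb in shNC3, which overlap. Over all regions, 21.3% passed as higher and 16.2% as lower. Other genes, picked out after their values were seen, had several regions nearby of one direction. MIR573 had 4 regions nearby, each specific to shT2, and CACNG4, a calcium channel subunit, had 5, of which 4 passed as lower.

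A small set stood on a raised local background, the coverage that peak calling expects around a peak. Local background over 5 times the genome-wide level was found at 17 intergenic regions and at 6 gene-near ones, a set chosen after the data had been seen. Of these 17, 5 lay at chr16:46389877-46400542 near the pseudogene ANKRD26P1, with peaks in all 3 shT2 samples and no shNC3 sample and a local background of up to 532 times the genome-wide one. At chr21:8234119-8234729 and chr3:93470400-93470774 peaks were present in shNC3 alone, over backgrounds of up to 73.6 and 45.5 times. Of the 5 regions farthest from any gene, which lay 1331964 bp or more away on chromosomes 1, 10 and 16, both on chromosome 16 were in this set. The part of the background in these peaks was not tested.

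On either side of the 2 kb limit, regions of more than one pattern were found. Just beyond it, and so intergenic, the region 2001 bp from USP6NL had 666, 693 and 747 bp in shT2 and 0, 315 and 0 bp in shNC3. The intergenic region 2003 bp from TAF9P3 had 4964, 4964 and 4029 bp in shT2 and 0, 600 and 373 bp in shNC3. That 2005 bp from COX7A1 had a peak in all 6 samples. Just within 2 kb, and so gene-near, the region 1999 bp from FANCG had 1154, 1273 and 1678 bp in shT2 and 306, 0 and 0 bp in shNC3. The gene-near region 1999 bp from MARCHF5 had 347, 761 and 463 bp in shT2 and no peak in shNC3. That 1998 bp from LITAF had a peak in all 6 samples.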

How the data were processed

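Peaks were called per sample; the authors used Bowtie2 2.4.4, SAMtools and MACS2 2.2.6 on hg38, per the submitters' processing notes. No source used here names the control that entered peak calling. Each deposited list holds peak positions with a score, the authors' fold enrichment (a ratio), and the deposited −log10 p-value and −log10 q-value. DNA was cut with 5 restriction enzymes before pulldown, per the labels' protocols, so region ends can be set by cut sites.

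Peaks were merged (gap 0, presence from 1 bp of overlap; the merge was checked with bedtools 2.31.1) and set against 59098 RefSeq genes. Covered bp per region, scaled to the mean total covered length, were tested as log2(bp + 200) with limma 3.58.1 (trend, robust) over 34776 regions at an adjusted p of 0.05. Single values per sample were compared by exact permutation. Strand was known for 27197 genes (46.0%). Depth was recovered by solving MACS2's fold and p per peak. The members and gene lists were chosen with earlier results of these data known. Regions named in the text follow a rule, apart from those said to be chosen after their values were seen. By mean covered length, the rule took the 10 largest in all 6 samples and the 5 largest specific to each hairpin. It also took the 8 most changed per direction, the 5 farthest and the 3 nearest the 2 kb limit on each side. The 5 densest clusters and up to 4 regions per list were added. On simulated data, 24, 42 and 62% of regions changed by 1, 2 and 3 log2 units were recovered, and none at 0.5, with 2 false calls over 34776 regions. The simulation changed 200 regions and drew normally distributed noise, while 37.5% of regions were called in the data. Its rates therefore do not describe the calls given here. The labels do not state separate cultures for the samples of a hairpin, so p-values measure only how far these samples vary, and that spread may be technical. Alternatives covered the pseudocount, scaling, peak strength, list length, depth, merging gap, presence rule, gene distance, replicate block and single replicates left out. One region near a gene of the lists is counted but not reported here.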

Additional observations from a re-analysis of the deposited data

Results flagged for a closer look

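Peaks on sequences other than chromosomes 1 to 22 and X, which enter no comparison above, summed to 408 over the 6 lists, and stand out as signal outside the main measurement. Per sample they numbered 63, 75 and 71 in shT2 and 70, 66 and 63 in shNC3, so the totals overlap. On 1 unlocalised sequence of chromosome 22, peaks covered 2.59, 1.97 and 2.25 kb in the shT2 samples, against 7.53, 7.18 and 7.46 kb in the shNC3 samples. On the mitochondrial genome they covered 6.84, 6.69 and 6.78 kb in shT2 and 13.6, 13.9 and 13.6 kb in shNC3. Other sequences went the other way: 1 unplaced sequence had 3.16, 4.49 and 4.26 kb in shT2 and no peak in shNC3, and 1 unlocalised sequence of chromosome 14 had 7.57, 9.09 and 6.30 kb in shT2 and 4.13, 1.43 and 2.01 kb in shNC3.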

How the results depend on the processing

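No call of a named region changed direction under any alternative, and of 44 such calls 16 were lost when weaker peaks (under 5-fold) were dropped, where 9 regions could not be fitted. With no filter on files 12 were lost. With no gene within 10 kb, the number present (-64 regions, shT2 minus shNC3) and the share of covered length (-0.034 points) reversed, limma called 69 higher and 126 lower, and 44 regions were specific to shT2 and 103 to shNC3. With 5-fold peaks these counts were 207, 115, 162 and 99, and with gaps of 1000 bp 222 were specific to shT2. The causes were not tested. Leaving out 1 replicate gave 466 to 559 higher and 246 to 272 lower; with a peak under both hairpins, 78 to 175 higher and 46 to 73 lower; 389 to 448 and 200 to 225 specific to shT2 and shNC3; 259 to 303.5 more regions present; and 0.611 to 0.655 points more covered length. Exact tests over samples cannot go below 0.1, or 0.2 without 1 replicate. The replicate numbers do not pair the samples (same-number correlations of -0.013, -0.024 and -0.015), and the replicate block gave 527 higher and 259 lower, or 138 and 59 with a peak under both hairpins.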
